A study of Mus musculus with 12 samples.

Results

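The late-annotated mouse miRNAs, those with a number of 1000 or higher in their name, were followed through a tunicamycin time course in NIH3T3 cells. Of 717 mature mouse probe sets on the array, 118 carried such a number. Star strands (3 probe sets), the miR-1937 names (3) and 4 probe sets aligned to the imprinted miRNA cluster of chromosome 12 (miR-1188, miR-1193, miR-1197 and miR-3072) were set aside, which left 108 members. The rule used names and positions only, not measured values. RNA came from proliferating NIH3T3 cells, a mouse embryonic fibroblast line, grown in serum-containing medium and exposed to 2 μg/ml tunicamycin for 2, 5 or 10 h. Cells without treatment stood for 0 h. Each time point had 3 GeneChip miRNA arrays, 12 in all, and values are log2 probe set summaries. Whether the arrays within a time point stem from different cultures is not stated in the labels, and the p-values therefore measure the spread between arrays only. No untreated arrays were made at 2, 5 or 10 h, so an effect of tunicamycin and an effect of time in culture cannot be told apart.

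A miRNA is cut from a hairpin precursor by the nucleases Drosha and Dicer, loaded into an Argonaute protein and guided to mRNAs mainly by its seed, the bases near its 5′ end. Tunicamycin blocks N-linked glycosylation, and unfolded proteins then accumulate in the endoplasmic reticulum and set off the unfolded protein response. Numbers are given in order of discovery, so high numbers mark entries that came largely from deep sequencing of small RNA. For most of them no function is established, and a part of such entries match repeats or fragments of ribosomal or transfer RNA and have since been withdrawn from the registry.

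Sequences could be matched by name in RefSeq (build GRCm38.p6) for 53 members, and 16 more matched a miRNA gene whose arm the array name does not give. The other 39 had no entry in the RefSeq set used. Among these were the called members miR-1946a, miR-1959, miR-2132, miR-1944, miR-1196, miR-2134, miR-2145, miR-2141, miR-2140, miR-1935, miR-1949 and miR-3473. What RNA their probe sets read was not tested. The 83 mature sequences of the 69 members with an entry held 83 different seeds (bases 2 to 8), so none of these members shared one. Seeds of the other 39 could not be compared. The sequences shown are those of members that passed the test below, were above the background limit and had an entry of the same name, both arms of miR-1224, and miR-1961, shown for its seed. Capitals mark the seed.
miR-1187 (chr5:82798964-82798986, minus strand): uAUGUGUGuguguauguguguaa
miR-1195 (chr17:70860558-70860580, minus strand): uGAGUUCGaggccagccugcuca
miR-1946b (chr9:21613452-21613477, minus strand): gCCGGGCAgugguggcacaugcuuuu
miR-1931 (chr10:93162879-93162900, plus strand): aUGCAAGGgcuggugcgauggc
miR-1895 (chr3:134240515-134240536, minus strand): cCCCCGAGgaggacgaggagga
miR-1894-5p (chr17:35917899-35917920, plus strand): cUCUCCCCuaccaccugccucu
miR-1983 (chr13:21896930-21896950, minus strand): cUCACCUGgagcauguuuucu
miR-2137 (chrX:72992113-72992133, plus strand): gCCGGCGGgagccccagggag
miR-1224-5p (chr16:20604452-20604472, plus strand): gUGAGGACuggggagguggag
miR-1224-3p (chr16:20604516-20604536, plus strand): cCCCACCUcuucucuccucag
miR-1961 (chr5:92788465-92788481, minus strand): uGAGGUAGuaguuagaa

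miR-1187 is built of U and G in alternation, with an unbroken UG run of 11 bases. miR-1195 and miR-1946b resemble B1, a short interspersed repeat that RNA polymerase III transcribes in mouse cells. The first 15 bases of each mature sequence were searched on both strands of 32817 promoter windows of 300 bases. For 68 of the 83 sequences no window held them, and 9 were found in more than 2 windows. These 9 included miR-3470b (18 windows, 0.0548% of all), miR-1195 and miR-3471 (11 each, 0.0335%), miR-1192 (9 windows, 0.0274%), miR-1187 and miR-1946b (3 each, 0.00914%). G and C made up 85.7% of miR-2137 and 94.7% of miR-2861, against a median of 56.5% over the 53 members with a sequence of the same name. Of the 69 members with a RefSeq gene, 52 lay inside a protein-coding gene in either orientation, among them miR-1224 in Vwa5b2, miR-1931 in Cdk17, miR-1895 in Cxxc4, miR-1894 in Ppp1r10, miR-2137 in Zfp185 and miR-1306 in Dgcr8, which encodes the RNA-binding partner of Drosha. Another 3 lay in a lncRNA gene only and 14 in no other gene. miR-1906, which has no alignment in the array annotation and so stayed a member, has 2 copies in RefSeq, and the copy on chromosome 12 lies in the imprinted lncRNA gene Meg3.

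Replicate arrays of 1 time point correlated over the members with Pearson's r between 0.983 and 0.996, and the lowest values belonged to pairs with the second array at 0 h or at 5 h. Fibroblast and mesenchymal marker miRNAs (10 of 10) were above background on every array. Of 7 epithelial marker miRNAs, miR-200c and miR-205 were above background on all 3 arrays at 0 h and at 2 h and none at 5 or 10 h, and the log2 of the list's summed level lay between 9.64 and 9.77 on the 0 h arrays, between 6.12 and 6.51 on the 2 h arrays, between 4.61 and 4.69 on the 5 h arrays and between 4.58 and 4.81 on the 10 h arrays. The part of this shift in the results was not tested. None of 4 blood markers was above background on all 3 arrays of any time point. Of 4 muscle markers miR-206 was at every time point, and of the 4 neuron and liver markers miR-128 was at every time point and miR-9 at 0, 2 and 5 h but not at 10 h.

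The background limit of each array, set at 3 spreads above the most frequent log2 value, lay between 2.99 and 3.19. The members split into a detected and an undetected set with few in between. On all 12 arrays 48 of the 108 members (44.4%) were above the limit, against 287 of the other 609 probe sets (47.1%), and on no array 39 members (36.1%) were, against 223 of the others (36.6%). The remaining 21 members were above it on some arrays. Detection differed between number blocks, as a description. All 12 arrays were above the limit for 15 of 23 members from miR-2000 upward and for 10 of 20 between miR-1500 and miR-1926. They were for 7 of 14 members between miR-1000 and miR-1499 and for 16 of 51 between miR-1927 and miR-1999, where 25 were on none. Of the 10 members with no alignment in the array annotation, 8 were detected on all 12 arrays. The median share of G and C was 60.0% for the 18 members with a sequence of the same name that were detected on all 12 arrays and 52.7% for the 26 detected on none.

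**Figure D1:**
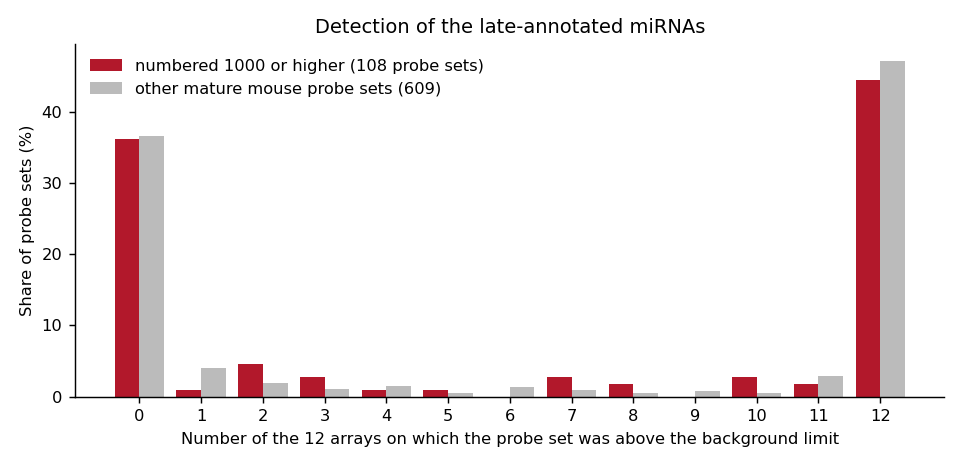
Number of arrays (of 12) on which a probe set was above the background limit, as the share of probe sets in percent, for the 108 members (red) and the other 609 mature mouse probe sets (grey). Most probe sets of both kinds were at 0 or at 12 arrays: 36.1% and 44.4% of the members, and 36.6% and 47.1% of the others.

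Change over time was tested with limma across all 717 probe sets, and members with an adjusted p below 0.05 (Benjamini-Hochberg, over all 717) were called. The F test over the 4 time points called 20 members (background 21.8% of all probe sets tested). At 2 h, 10 members were higher than at 0 h (9.26% of members, background 7.39%) and 2 were lower (1.85%, background 5.86%). At 5 h, 8 members were higher than at 0 h (7.41%, background 4.32%) and 2 lower (1.85%, background 4.04%). At 10 h, 11 members were higher than at 0 h (10.2%, background 5.58%) and 2 lower (1.85%, background 7.11%). From 2 to 5 h, 7 members were higher (background 5.86%) and 6 lower (background 4.88%) at 5 h. From 5 to 10 h, 2 were higher (background 1.81%) and 4 lower (background 3.77%) at 10 h. At 10 h against 2 h, 4 were higher (background 5.72%) and 2 lower (background 5.16%). The arrays of the 2 time points did not overlap for 29 members at 2 h (background 30.1%), 22 at 5 h (background 21.5%) and 30 at 10 h (background 28.0%), all against 0 h. The share of members changed was thus near that of all probe sets, while calls against 0 h were mostly on the higher side. No exact permutation test is given, since 3 arrays against 3 allow no p under 0.1.

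Relative to 0 h, the members had a median log2 difference of 0.09 at 2 h, against 0.03 over all probe sets tested. It was 0.12 at 5 h, against 0.03 over all, and 0.09 at 10 h, against 0.02. The difference was above 0 for 64.8% of the members at 2 h and for 69.4% at both 5 and 10 h, against 54.8%, 55.5% and 53.1% of all probe sets. When each array was shifted to 1 common median, the calls were 3 higher and 0 lower at 2 h, 6 higher and 1 lower at 5 h, and 11 higher and 0 lower at 10 h. The 3 members still called higher at 2 h were miR-1195, miR-1959 and miR-2145. Over all probe sets the same shift changed the calls at 2 h to 7 higher and 30 lower, against 53 and 42 as deposited. It changed those at 5 h to 11 higher and 11 lower, against 31 and 29, and those at 10 h to 38 higher and 18 lower, against 40 and 51. The shift changed the members called from 2 to 5 h to 6 higher and 3 lower, beside 33 and 18 over all probe sets. At 10 h against 2 h, 5 members were then higher and 1 lower, beside 45 and 17 over all. The shift moved the median of all probe sets at 10 h against 2 h to 0.11, against −0.02 as deposited.

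**Figure D2:**
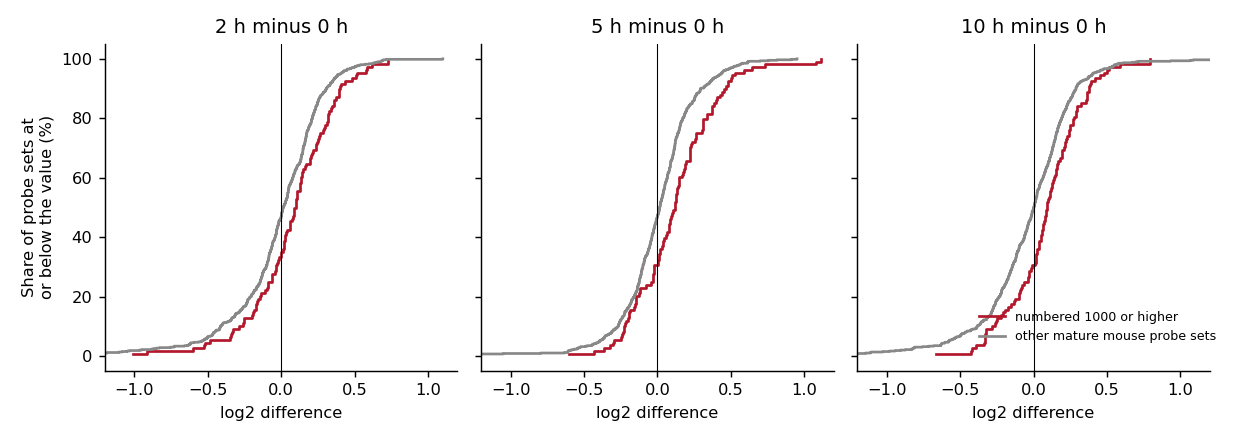
Share of probe sets (%) at or below each log2 difference from 0 h, at 2, 5 and 10 h, for the 108 members (red) and the other 609 mature mouse probe sets (grey). The red curve runs to the right of the grey one around 0, where 64.8%, 69.4% and 69.4% of the members had a positive difference. Values beyond the ends of the axis are not drawn.

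In all, 23 members were called in at least 1 comparison, and 22 of these were above the background limit on all 12 arrays. They fell into sets by the time of their highest mean. Among the 20 members called by the F test the highest mean was at 2 h for 8, at 5 h for 6, at 10 h for 5 and at 0 h for 1. The lowest mean was at 0 h for 12 of them.

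miR-1946a and miR-1946b were highest at 5 h. miR-1946a had log2 values of 7.44, 7.52 and 7.55 at 0 h, 7.86, 7.90 and 7.84 at 2 h, 8.61, 8.59 and 8.66 at 5 h, followed by 7.73, 7.86 and 7.79 at 10 h. Its 3 arrays at 5 h lay above the other 9 and its 3 arrays at 0 h below them. It was 1.12 ± 0.07 higher at 5 h than at 0 h (log2 difference ± SE, 2.17-fold, adjusted p = 6.01e-08 by limma), 0.36 ± 0.07 higher at 2 h (adjusted p = 0.00412) and 0.29 ± 0.07 higher at 10 h (adjusted p = 0.0152). The call at 10 h ended without the first 0 h array or without the second 10 h array, with differences of 0.25 and 0.26. miR-1946b, the sequence of which is given above, had 7.55, 7.51 and 7.76 at 0 h, 8.03, 7.99 and 8.0 at 2 h, 8.63, 8.75 and 8.68 at 5 h, followed by 8.06, 7.83 and 8.06 at 10 h. It too had its 3 highest arrays at 5 h. It was 1.08 ± 0.09 higher at 5 h than at 0 h (2.12-fold, adjusted p = 9.31e-07), 0.40 ± 0.09 at 2 h and 0.38 ± 0.09 at 10 h. Between 5 and 10 h miR-1946a fell by 0.83 and miR-1946b fell by 0.70 (adjusted p = 4.96e-06 and 0.000144). The array annotation places them apart, miR-1946a at chr16:32267536-32267669 and miR-1946b on chromosome 9. No sequence was available for miR-1946a, so whether the 2 probe sets read the same RNA was not tested. Their rises at 5 h may therefore not be separate observations.

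miR-1931, miR-1187, miR-1196 and miR-2132 also had their highest mean at 5 h. miR-1931, which lies in the gene of the kinase Cdk17, had 6.46, 6.43 and 6.75 at 0 h, 6.69, 6.62 and 6.70 at 2 h, 6.91, 7.06 and 6.94 at 5 h, followed by 6.41, 6.26 and 6.34 at 10 h. Its 10 h arrays lay below all others and its 5 h arrays above all others, and it fell by 0.64 between 5 and 10 h (SE 0.12, adjusted p = 0.0045 by limma). Its gain at 5 h over 0 h was 0.43 ± 0.12 (adjusted p = 0.0366), a call that ended in 7 of the 12 fits without 1 array (either of the first and the second 0 h arrays, the first and the third 2 h arrays, or any 5 h array), with differences of 0.37 to 0.46, and with the replicate number as a block (adjusted p = 0.0659). miR-1187, the UG repeat, had 5.40, 5.66 and 5.64 at 0 h, 4.93, 5.25 and 4.72 at 2 h, 6.08, 6.54 and 6.29 at 5 h, followed by 5.82, 5.53 and 5.80 at 10 h. Its 2 h arrays were the lowest and its 5 h arrays the highest of the 12. It was 1.34 ± 0.18 higher at 5 h than at 2 h (2.53-fold, adjusted p = 0.000122). It was 0.73 ± 0.18 higher at 5 h than at 0 h (adjusted p = 0.0223). That call ended without the first 0 h or the second 5 h array (0.62 to 0.65). It was 0.75 ± 0.18 higher at 10 h than at 2 h (adjusted p = 0.0126). That call ended without the third 2 h or the third 10 h array (0.63 to 0.71). At 2 h it was 0.60 ± 0.18 lower than at 0 h (log2 difference −0.60, adjusted p = 0.0428). That call held in 4 of the 12 fits without 1 array and ended without any 0 h array, the first or the third 2 h array, the third 5 h array, or the first or the third 10 h array, with differences of −0.69 to −0.48.

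miR-2132 had 11.09, 11.02 and 11.07 at 0 h, 10.89, 10.97 and 10.85 at 2 h, 11.50, 11.46 and 11.34 at 5 h, followed by 11.28, 11.34 and 11.37 at 10 h. All arrays at 5 and 10 h lay above those at 0 and 2 h. It was 0.37 ± 0.05 higher at 5 h (1.29-fold, adjusted p = 0.000172 by limma) and 0.27 ± 0.05 higher at 10 h than at 0 h, and 0.53 ± 0.05 higher at 5 h than at 2 h (adjusted p = 2.61e-06). Its difference at 2 h was −0.16 ± 0.05 (adjusted p = 0.045), and the call ended in 8 of the 12 fits without 1 array (any 0 h array, the first or the third 2 h array, the second 5 h array, the second or the third 10 h array), with differences of −0.18 to −0.13. miR-1196 had 8.39, 8.51 and 8.67 at 0 h, 8.77, 8.72 and 8.49 at 2 h, 9.05, 9.02 and 8.91 at 5 h, followed by 8.85, 9.0 and 8.85 at 10 h. Its arrays at 0 and 2 h overlapped, and those at 5 and 10 h lay above them. It was 0.47 ± 0.09 higher at 5 h and 0.38 ± 0.09 higher at 10 h than at 0 h (adjusted p = 0.00475 and 0.0102). The call at 10 h ended without the first 0 h or the second 10 h array (0.31 to 0.33). It was 0.33 ± 0.09 higher at 5 h than at 2 h (adjusted p = 0.0246), and that call ended without the third 2 h, the first 5 h or the second 5 h array (0.25 to 0.32). miR-3473 was 0.48 ± 0.14 higher at 5 h than at 0 h (adjusted p = 0.049), but the call held only in the fit without the second 5 h array and ended without any other single array (0.31 to 0.52) and with the replicate block (adjusted p = 0.0816).

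**Figure D3:**
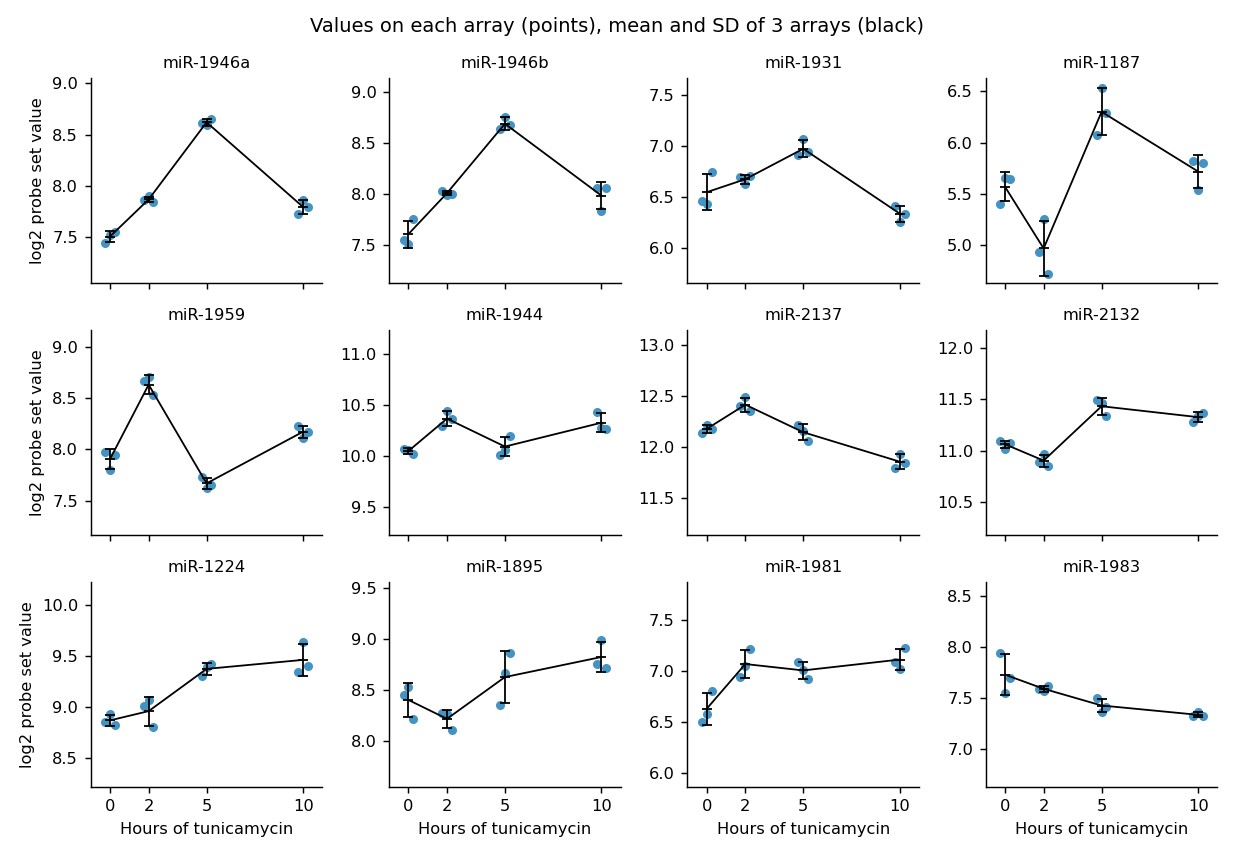
log2 probe set values of 12 members against hours of tunicamycin. Blue points are single arrays (3 per time point, slightly offset), and black lines and bars are the mean and SD of the 3 arrays. Every panel spans 2 log2 units, and the panels have different starting values. miR-1946a reached 8.61, 8.59 and 8.66 at 5 h, while miR-1959 was highest at 2 h and lowest at 5 h.

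miR-1959 had its highest values at 2 h and its lowest at 5 h. It had 7.98, 7.80 and 7.94 at 0 h, 8.67, 8.71 and 8.53 at 2 h, 7.73, 7.62 and 7.65 at 5 h, followed by 8.23, 8.11 and 8.18 at 10 h. The arrays of the 4 time points did not overlap. It was 0.73 ± 0.08 higher at 2 h than at 0 h (1.66-fold, adjusted p = 1.88e-05 by limma), fell by 0.97 between 2 and 5 h (SE 0.08, adjusted p = 8.87e-07) and rose by 0.51 ± 0.08 between 5 and 10 h (adjusted p = 0.00151). Its difference at 10 h from 0 h was 0.27 ± 0.08 (adjusted p = 0.0397), and that call ended in 7 of the 12 fits without 1 array (any 0 h or 10 h array, or the first 2 h array), with differences of 0.21 to 0.30. miR-1944 moved the same way at 2 and 5 h, with 10.07, 10.06 and 10.02 at 0 h, 10.30, 10.45 and 10.36 at 2 h, 10.02, 10.06 and 10.20 at 5 h, followed by 10.44, 10.28 and 10.27 at 10 h. Its 2 h and 10 h arrays lay above all arrays at 0 and 5 h. It was 0.32 ± 0.06 higher at 2 h and 0.28 ± 0.06 higher at 10 h than at 0 h (adjusted p = 0.00306 and 0.00731), and fell by 0.27 between 2 and 5 h (adjusted p = 0.00794). The step of 0.23 ± 0.06 from 5 to 10 h (adjusted p = 0.0388) ended as a call in 8 of the 12 fits without 1 array (the first or the third 0 h, the third 2 h, the first or the second 5 h, or any 10 h array), with differences of 0.18 to 0.26.

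The members from miR-2134 to miR-2145 include entries at the bright end of the array, and several were highest at 2 h. miR-2137 had 12.14, 12.22 and 12.18 at 0 h, 12.40, 12.49 and 12.36 at 2 h, 12.22, 12.16 and 12.06 at 5 h, followed by 11.80, 11.94 and 11.84 at 10 h. Its 2 h arrays lay above all others and its 10 h arrays below all others. It was 0.24 ± 0.05 higher at 2 h than at 0 h (1.18-fold, adjusted p = 0.00467 by limma), and at 10 h it fell by 0.32 relative to 0 h (1.25-fold, adjusted p = 0.000356) and by 0.56 relative to 2 h (adjusted p = 1.82e-06). When each array was shifted to 1 common median, no member was called lower at 10 h than at 0 h, miR-2137 included. miR-2134 had 12.56, 12.62 and 12.52 at 2 h, against 12.25, 12.42 and 12.16 at 0 h, a difference of 0.29 ± 0.06 (adjusted p = 0.00531). miR-2145 had 12.27, 12.47 and 12.19 at 2 h, against 11.97, 12.11 and 11.91 at 0 h, a difference of 0.32 ± 0.07 (adjusted p = 0.00575). The 2 h arrays lay above the 0 h arrays for both. miR-2145 fell by 0.30 between 2 and 5 h (adjusted p = 0.00824), with 12.03, 11.93 and 12.08 at 5 h. Neither miR-2134 nor miR-2145 has an alignment in the array annotation.

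miR-2141 and miR-2140 were lower at 5 h. miR-2141 had 9.60, 9.54 and 9.80 at 5 h, against 10.12, 10.18 and 9.93 at 0 h and 9.93, 10.39 and 9.95 at 2 h. Its 5 h arrays lay below those of both earlier times. It fell by 0.45 between 2 and 5 h (SE 0.11, adjusted p = 0.0114 by limma), which ended as a call without the second 5 h array (−0.39) and was −0.30 without the second 2 h array, and was 0.43 lower at 5 h than at 0 h (log2 difference −0.43, adjusted p = 0.022), which ended without the first or the second array at 0 h or at 5 h (−0.41 to −0.38). miR-2140 fell by 0.30 between 2 and 5 h (adjusted p = 0.0475), but the call ended in 6 of the 12 fits without 1 array (the first or the third 0 h, the first or the second 2 h, the second 5 h, or the second 10 h array), with differences of −0.34 to −0.20.

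miR-1195 and miR-1935 were also highest at 2 h. miR-1195, the B1-like sequence, had 12.01, 12.38 and 11.80 at 2 h, against 11.62, 11.69 and 11.65 at 0 h. All arrays at 2, 5 and 10 h lay above the 0 h arrays. It was 0.41 ± 0.10 higher at 2 h than at 0 h (1.33-fold, adjusted p = 0.0131 by limma). Without the second 2 h array the difference was 0.25 (adjusted p = 0.0198), and the call ended without a variance trend (adjusted p = 0.0729), with only the arrays of the 2 times (adjusted p = 0.0586) and in the methods' t-test (adjusted p = 0.3). Its differences of 0.31 at 5 h and 0.18 at 10 h did not pass the threshold. miR-1935 had 8.47, 8.45 and 8.36 at 2 h, against 7.75, 8.05 and 7.96 at 0 h, with no overlap. Its difference of 0.51 ± 0.14 (adjusted p = 0.0233) ended as a call without the first 0 h array or without any 2 h array (0.42 to 0.54).

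miR-1224 had the largest rise from 0 to 10 h among the 11 members called higher at 10 h. Mammalian miR-1224 is a mirtron, a short intron that is spliced out and enters the pathway without Drosha. It had 8.85, 8.93 and 8.83 at 0 h, 9.01, 9.07 and 8.80 at 2 h, 9.31, 9.39 and 9.42 at 5 h, followed by 9.34, 9.64 and 9.41 at 10 h. The arrays at 0 and 2 h overlapped, and all arrays at 5 and 10 h lay above them. It was 0.50 ± 0.09 higher at 5 h (1.42-fold, adjusted p = 0.00153 by limma) and 0.59 ± 0.09 higher at 10 h than at 0 h (1.51-fold, adjusted p = 0.000207), and 0.41 ± 0.09 higher at 5 h than at 2 h. The array name does not say which arm was measured, and the arms shown above have different seeds.

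miR-1895, miR-1949, miR-1981 and miR-1894-5p had their highest means at 10 h as well. miR-1895 had 8.46, 8.54 and 8.22 at 0 h, 8.28, 8.27 and 8.12 at 2 h, 8.36, 8.67 and 8.86 at 5 h, followed by 8.76, 8.99 and 8.72 at 10 h. Its 10 h arrays lay above those at 0 and 2 h. It was 0.61 ± 0.12 higher at 10 h than at 2 h (1.52-fold, adjusted p = 0.00274 by limma) and 0.42 ± 0.12 higher than at 0 h (adjusted p = 0.0296), the second of which ended as a call without the first or the third 0 h array or the second 10 h array (0.33 to 0.45). Its step of 0.41 ± 0.12 from 2 to 5 h (adjusted p = 0.0418) ended in 8 of the 12 fits without 1 array (the first 0 h, any 2 h, the second or the third 5 h, the first or the third 10 h array), with differences of 0.29 to 0.44. miR-1949 had 8.64, 8.45 and 8.41 at 10 h, against 8.18, 7.91 and 8.04 at 0 h, a difference of 0.45 ± 0.11 (adjusted p = 0.0122) that ended as a call without the second 0 h or the first 10 h array (0.38 to 0.39).

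miR-1981, which lies in Mtarc2, the gene of a mitochondrial reductase, had 6.50, 6.58 and 6.80 at 0 h, 6.94, 7.04 and 7.21 at 2 h, 7.08, 7.01 and 6.92 at 5 h, followed by 7.08, 7.02 and 7.23 at 10 h. All arrays after 0 h lay above the 0 h arrays. It was 0.44 ± 0.12 higher at 2 h and 0.48 ± 0.12 higher at 10 h than at 0 h (adjusted p = 0.0221 and 0.0107 by limma). The first call ended without the first or the second 0 h array or the third 2 h array (0.37 to 0.41), and the other without the first 0 h or the third 10 h array (0.42). At 5 h its difference of 0.38 did not pass the threshold. miR-1894-5p had 8.13, 8.26 and 8.22 at 10 h, against 7.91, 7.78 and 7.83 at 0 h. It was 0.36 ± 0.08 higher (1.29-fold, adjusted p = 0.00931), a call that held in all 12 fits without 1 array.

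miR-1983 was the other member called lower at 10 h. It had 7.94, 7.55 and 7.69 at 0 h, 7.58, 7.56 and 7.62 at 2 h, 7.50, 7.37 and 7.41 at 5 h, followed by 7.32, 7.36 and 7.32 at 10 h. Its means followed the order of the time points downward, and the 10 h arrays lay below the 0 h arrays. It was 1.31-fold lower at 10 h (log2 difference −0.39 ± 0.10, adjusted p = 0.0145 by limma), a call that ended without the first 0 h array (−0.29, adjusted p = 0.0887). miR-1905 was called lower at 5 h than at 0 h, but it was below the background limit on all 12 arrays, and no fold is given. That call ended in 5 of the 12 fits without 1 array and with the replicate block (adjusted p = 0.0562).

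**Figure D4:**
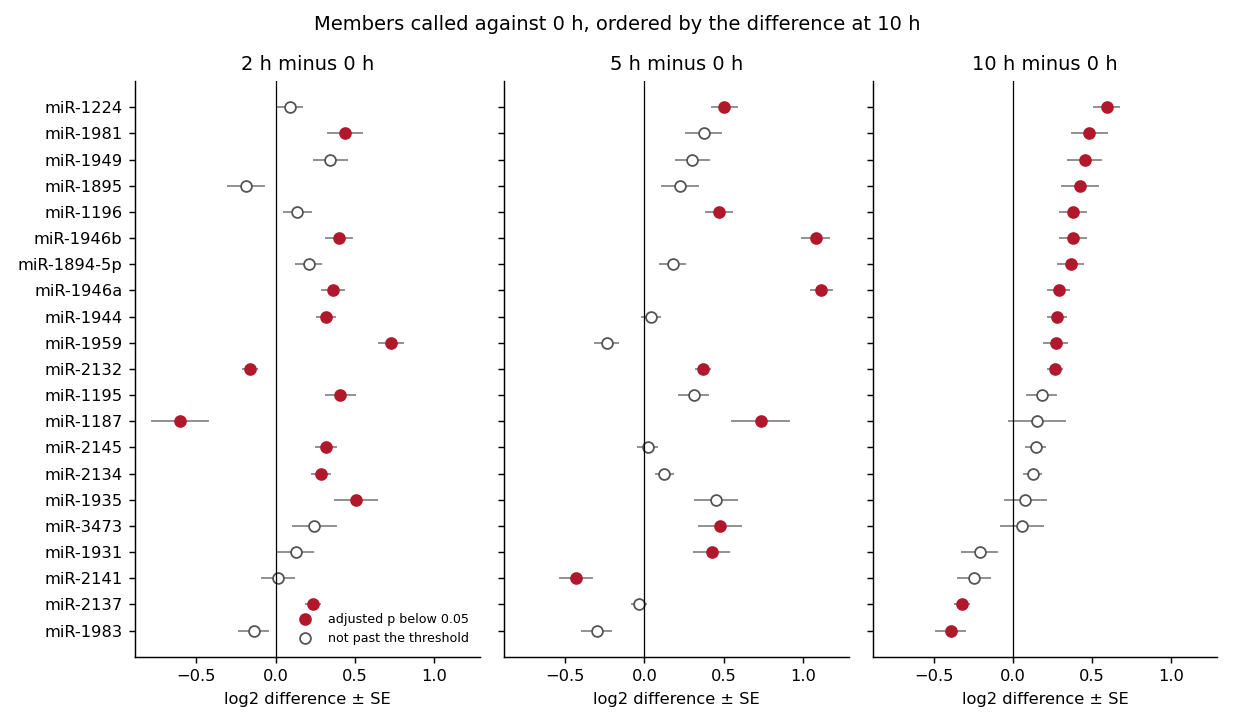
log2 difference from 0 h with its SE (grey bars) at 2, 5 and 10 h for the 21 members that were called against 0 h and above background, ordered by the difference at 10 h. Filled points passed an adjusted p below 0.05 and open points did not. miR-1946a and miR-1946b lie past 1.0 at 5 h, and miR-1187 and miR-2132 lie on opposite sides of 0 at 2 h and at 5 h.

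The other members at the bright end did not pass the test. miR-2138 stayed between 12.7 and 13.1 on the 12 arrays (F test adjusted p = 0.468 by limma), miR-2861, a miRNA of osteoblast differentiation in the mouse, between 11.8 and 12.3 (adjusted p = 0.216), miR-2146 between 11.5 and 12.03 (adjusted p = 0.147) and miR-2135 between 10.7 and 11.2 (adjusted p = 0.253). By number block, and all against 0 h, the calls lay as follows. Over all probe sets tested, 7.39% were called higher and 5.86% lower at 2 h. The shares were 4.32% and 4.04% at 5 h, and 5.58% and 7.11% at 10 h. Of 14 members between miR-1000 and miR-1499, 1 was higher and 1 lower at 2 h, 3 were higher at 5 h and 2 higher at 10 h. Of 20 between miR-1500 and miR-1926, 0 were called at 2 h, 1 was lower at 5 h and 2 were higher at 10 h. The 1 called lower was miR-1905, which was below the background limit on all 12 arrays. Of 51 between miR-1927 and miR-1999, 6 were higher at 2 h, 3 higher at 5 h, and 6 higher and 1 lower at 10 h. Of 23 from miR-2000 upward, 3 were higher and 1 lower at 2 h, 2 higher and 1 lower at 5 h, and 1 higher and 1 lower at 10 h. Whether the blocks differ was not tested.

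Seeds tied 14 of the members' mature sequences to other mouse miRNAs, and the 3 described here were chosen after their values were seen. miR-1961 carries the seed of the let-7 family, shown above, and was below the background limit on all 12 arrays, with means of 1.72, 2.01, 2.17 and 1.95 at 0, 2, 5 and 10 h. miR-1928 carries the seed of miR-221-3p and miR-222-3p and was also below the limit on all 12 arrays, with means of 1.88, 1.90, 1.85 and 1.99. miR-1192 shares its seed with miR-495-3p and was above the limit on 5 arrays.

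For 5 hairpins both arms were members, and 2 names, miR-1982.1 and miR-1982.2, came from 1 further hairpin. Levels of different probe sets cannot be set against each other, so only detection and change are compared. Both arms of miR-1839 and both of miR-1894 were above the limit on all 12 arrays. miR-1941-5p was above it on 12 arrays with a mean of 5.56 at 0 h, and miR-1941-3p on none. miR-1897-5p was above it on 11 arrays and miR-1897-3p on none, while neither arm of miR-1933 was detected. miR-1894-3p had means of 6.78, 6.61, 7.04 and 7.15 at 0, 2, 5 and 10 h, with SDs up to 0.34 (n = 3), and was not called, whereas miR-1894-5p was called at 10 h. Apart from strands of 1 hairpin, no member lay within 10 kb of another mature probe set in the array annotation.

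The array also held 107 probe sets for the hairpins of 97 members. They were fitted apart, with all 690 hairpin probe sets. Of the 107, 71 were above the limit on no array and 16 on all 12. None was called by the limma F test (background 0.145%). The mir-1944 hairpin had 10.60, 10.72 and 10.62 at 0 h, 10.80, 10.91 and 10.75 at 2 h, 10.60, 10.81 and 10.79 at 5 h, followed by 10.85, 10.91 and 10.87 at 10 h. Its differences from 0 h were 0.18 ± 0.06 at 2 h and 0.23 ± 0.06 at 10 h (adjusted p = 0.622 and 0.274), beside 0.32 and 0.28 for mature miR-1944. The mir-2137 hairpin had means of 5.18, 5.40, 5.28 and 5.07 at 0, 2, 5 and 10 h. The mir-1981 hairpin differed from 0 h by 0.25 at 2 h and 0.19 at 10 h, beside 0.44 and 0.48 for mature miR-1981. For the mir-1195 hairpin, the probe set mir-1195_x differed from 0 h by 0.44, 0.47 and 0.38 at 2, 5 and 10 h. None of these was called (limma adjusted p = 0.61, 0.47 and 0.49). Mature miR-1195 differed by 0.41, 0.31 and 0.18. The probe set mir-1195 of the same hairpin differed by −0.07, −0.04 and 0.02. Some other detected hairpins did not move with the mature probe set. At 10 h mir-1949 differed by −0.12, beside 0.45 for miR-1949, and mir-1894 by 0.05, beside 0.36 for miR-1894-5p. At 5 h mir-2141 differed by 0.20, beside −0.43 for miR-2141. Whether hairpin and mature changes go together was not tested. The mir-1187 hairpin was below the limit on all 12 arrays.

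A wide spread within a time point is shown for 3 members, chosen after their values were seen. At 0 h miR-1192 had 2.34, 6.42 and 2.69, and at 5 h 2.81, 4.88 and 3.10. At 0 h miR-1951 had 5.39, 6.61 and 5.31, at 5 h 5.46, 7.56 and 5.41, and at 10 h 5.48, 5.47 and 5.38. For both, the second array stood above the other 2 at 0 h and at 5 h. miR-1897-5p had 2.72, 5.43 and 4.68 at 5 h. At least 0.5 log2 units separated an array from the mean of the other 2 for 20 members on the second 0 h array (16 above) and for 18 on the second 5 h array (12 above). These were 18.5% and 16.7% of the members, beside 15.3% and 17.3% of all probe sets tested. On the other 10 arrays 3 to 17 members deviated so far (2.78% to 15.7%), beside 5.58% to 11.3% of all probe sets. Among the 23 called members there was 1 such deviation, on the third 5 h array. The test weighs a difference against the spread within time points, so members with such deviations are seldom called. This count is therefore no check of the calls. Leaving out both second arrays kept 47 of the 60 calls made over the 6 comparisons.

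**Figure D5:**
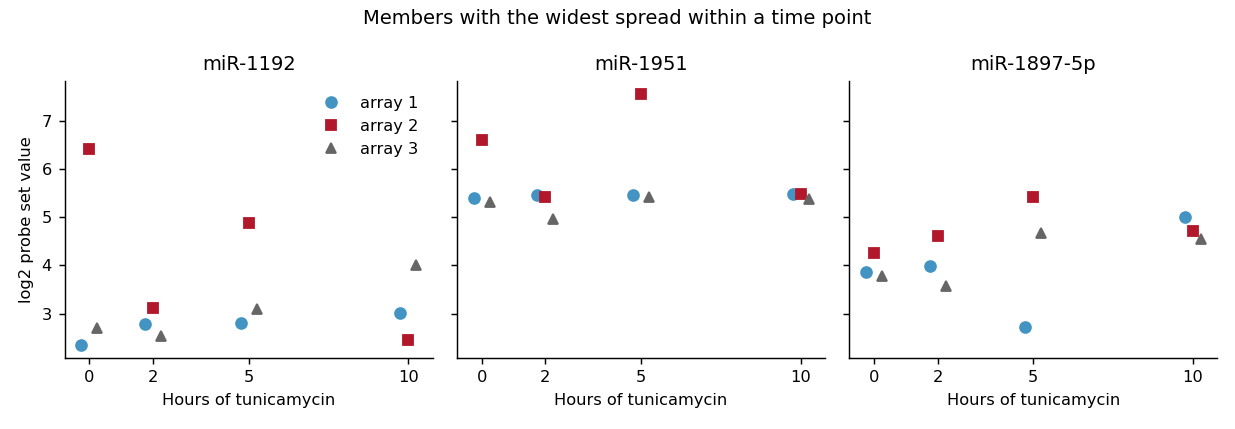
log2 probe set values of miR-1192, miR-1951 and miR-1897-5p against hours of tunicamycin, with the first (circle), the second (square) and the third (triangle) array of each time point. The second array of miR-1192 stood at 6.42 at 0 h beside 2.34 and 2.69, and that of miR-1951 at 7.56 at 5 h beside 5.46 and 5.41.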

How the data were processed

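GeneChip miRNA arrays were run on biotin-labelled total RNA of 12 NIH3T3 samples. For each probe set the authors deposited log2 values, made with RMA per the submitters' processing notes (version not given in the sources used here) and analysed in GENESPRING with analysis of variance and t-tests per the methods. RMA sets all arrays to 1 distribution, so an overall shift would not be seen. Columns with the authors' own comparisons (p-values, ratios, fold changes, group means) were not used. The 2 deposited tables held identical values (largest difference 0). The 717 mature mouse probe sets entered 1 fit over all 12 arrays (limma 3.58.1 under R 4.3.3, lmFit and eBayes with trend). Contrasts were two-sided, adjusted by Benjamini-Hochberg over the 717, and called at adjusted p below 0.05. The 690 hairpin probe sets were fitted apart and 5 older annotation names left out. The script was tested on simulated data. Same-numbered arrays deviated together in every pair between 5 h and 0 h (r = 0.307, 0.601 and 0.192 over all probe sets). Between 5 h and 2 h the correlations were also positive in every pair but small (r = 0.056, 0.058 and 0.048). Calls changed by a replicate block are given beside the result only for 5 h against 0 h, and all are listed at the end. The labels do not say what a number marks. The first 0 h array correlated more with the third 5 h array (r = 0.382) than with the first, and the third 0 h array more with the first 5 h array (r = 0.427) than with the third. Array numbers limit the precision, since no read depth exists. Named members were those called (values for at most 12 per contrast), the 12 with the highest 0 h mean and those sharing a seed. The members and lists were chosen with earlier results of these data known. Alternatives were scaling, filters on dim probe sets, hairpins in the fit, no variance trend, the methods' t-test, only the arrays compared, a replicate block, arrays left out and other background limits.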

Additional observations from a re-analysis of the deposited data

Results flagged for a closer look

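The differences between treated time points were tested directly, and 25 of them passed the threshold for a member (limma, adjusted p below 0.05). From 2 to 5 h the log2 difference (5 h minus 2 h) was 1.34 for miR-1187, 0.76 for miR-1946a, 0.68 for miR-1946b, 0.53 for miR-2132, 0.41 for miR-1224, 0.41 for miR-1895 and 0.33 for miR-1196. It was −0.97 for miR-1959, −0.45 for miR-2141, −0.30 for miR-2145, −0.30 for miR-2140, −0.27 for miR-1944 and −0.27 for miR-2137. From 5 to 10 h (10 h minus 5 h) it was 0.51 for miR-1959 and 0.23 for miR-1944, and −0.83 for miR-1946a, −0.70 for miR-1946b, −0.64 for miR-1931 and −0.29 for miR-2137. Between 10 h and 2 h (10 h minus 2 h) it was 0.75 for miR-1187, 0.61 for miR-1895, 0.50 for miR-1224 and 0.43 for miR-2132, and −0.46 for miR-1959 and −0.56 for miR-2137.

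miR-1187 and miR-2132 were called lower at 2 h and higher at 5 h, each against 0 h, and miR-2137 was called higher at 2 h and lower at 10 h. The calls of miR-1187 and miR-2132 at 2 h each ended in 8 of the 12 fits without 1 array and with the replicate block. When each array was shifted to 1 common median, these calls at 2 h and both calls of miR-2137 ended as well. Groups of 3 arrays were too small for a test of single outlying arrays.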

How the results depend on the processing

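Of the 60 calls of members in the 6 comparisons, none changed sign under any alternative, 38 held in all 12 fits without 1 array, and 14 held in every alternative fit with adjusted p-values. Counts that moved by over 1.5 times are given by setting. With each array shifted to 1 common median, members higher at 2 h than at 0 h were 3, and 0 were lower at 2 h, 1 was lower at 5 h, 0 were lower at 10 h, 3 were lower at 5 h than at 2 h, 2 at 10 h than at 5 h and 1 at 10 h than at 2 h. With quantile normalization 1 was lower at 2 h and 1 higher at 10 h than at 5 h. Without a variance trend, 5 were higher and 1 lower at 2 h, 1 lower at 5 h, 7 higher at 10 h, 2 lower at 5 h than at 2 h, 1 higher at 10 h than at 5 h, and 12 changed over time. After Benjamini-Hochberg adjustment the methods' t-test gave, against 0 h, 3 higher with 0 lower for 2 h, 3 higher with 0 lower for 5 h and 3 higher with 1 lower for 10 h. It gave 4 higher with 1 lower for 5 h against 2 h, 1 higher with 2 lower for 10 h against 5 h, 1 higher for 10 h against 2 h, and 11 changed over time. At an unadjusted p below 0.05 it gave 17 higher at 2 h, 4 lower at 5 h and 9 lower at 10 h than at 2 h. Hairpins in the same fit gave 0 lower at 2 h, 1 lower at 5 h and 1 higher at 10 h than at 5 h. Only the arrays of the 2 times gave the same 3 counts, and 5 lower at 10 h than at 2 h. The brighter 50% of probe sets gave 4 lower at 5 h and 5 lower at 10 h than at 2 h, and probe sets above the background limit gave 5 lower at 10 h than at 2 h. Without the second arrays at 0 h and 5 h, 0 were lower at 2 h, 0 lower at 5 h, 1 higher at 10 h than at 5 h and 5 lower at 10 h than at 2 h. The cause of these shifts was not tested, except that fewer probe sets or arrays enter some fits.

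Same-numbered arrays deviated from their group means with correlations between −0.21 and 0.60 over all probe sets. With the replicate block, 0 members were lower at 2 h, 1 lower at 5 h, 1 higher at 10 h than at 5 h and 18 changed over time, and 52 of the 60 calls held. The 8 that ended were miR-1187 and miR-2132 at 2 h, miR-1905, miR-1931 and miR-3473 at 5 h and miR-1959 at 10 h, all against 0 h, miR-2140 at 5 h against 2 h, and miR-1944 at 10 h against 5 h.

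Leaving out each array in turn gave 9 to 11 members higher and 0 to 2 lower at 2 h, 5 to 9 higher and 0 to 3 lower at 5 h, 6 to 12 higher and 1 to 3 lower at 10 h, 5 to 8 higher and 4 to 9 lower at 5 h than at 2 h, 1 to 3 higher and 4 to 6 lower at 10 h than at 5 h, 3 to 6 higher and 2 to 4 lower at 10 h than at 2 h, and 14 to 23 changed over time. With the background limit at 2 or 4 spreads in place of 3, 52 or 44 members were above it on all 12 arrays and 29 or 46 on none. Members below the limit have no measured level here.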
